A study of Mus musculus with 99 samples.

Results

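Heart transcript levels were compared between 5 Swiss-derived inbred mouse strains and the other 23 classical inbred strains of a panel of 99 strains. The labels name the strains but not their descent, which was taken from general knowledge of breeding history. The Swiss-derived strains were SWR/J, FVB/NJ, BUB/BnJ, NOD/ShiLtJ and NON/ShiLtJ, and each was represented by 1 array. The other classical strains were every inbred strain of the panel that is neither recombinant inbred nor CAST/EiJ nor B6cC3-1/KccJ. They were 129X1/SvJ, A/J, AKR/J, BALB/cJ, BTBR T<+> tf/J, C3H/HeJ, C57BL/6J, C57L/J, C58/J, CBA/J, CE/J, DBA/2J, I/LnJ, KK/HlJ, LG/J, LP/J, MA/MyJ, NZB/BlNJ, NZW/LacJ, PL/J, RIIIS/J, SEA/GnJ and SM/J. All 28 groups of mice were males on a chow diet without treatment, and the source was heart. The protocol gives an age of 16 weeks, while the age entered per sample rises with sample order and was not used. The panel was assembled for genetic association mapping of cardiac expression. The labels do not say how many animals went into an array.

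Swiss mice are an outbred stock that was brought from Europe to American laboratories and spread from there. SWR and FVB were inbred from such mice, and NOD and NON were inbred in Japan from an outbred Swiss stock. NOD mice develop autoimmune diabetes, and NON mice were bred beside them as a control line without it. An inbred strain is homozygous at nearly every locus, so a transcript difference that an allele causes shows at full size on a single array, together with whatever the environment and the dissection added. Strains that share ancestors share long stretches of chromosome, which include the major histocompatibility complex (MHC, called H2 in mice). SWR, FVB and BUB carry the H2 haplotype q, and NOD carries the haplotype g7 that its diabetes requires.

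Levels are the authors' deposited log2 values, so a difference of 1 is a doubling, and the value of the brightest probe set stands for each gene. Of 11725 genes, 7513 had a mean over the 99 arrays above the 40th percentile of probe set means (3.59 log2) and were tested. A gene was called at a limma p under 0.05 after Benjamini-Hochberg adjustment over those 7513 genes. No strain has a second array, so the p-values measure the spread between strains, which includes technical spread, and strains are related by descent. In whole heart, fewer cells of a type and less RNA per cell cannot be told apart.

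The 5 Swiss-derived arrays were heart by their markers but did not look alike. The mean level of 7 cardiomyocyte markers was 12.00 to 12.11 on them, against 11.89 to 12.11 on the 23 others. NOD/ShiLtJ stood apart: skeletal muscle markers had a mean level of 7.04, squamous epithelium markers of 5.97 and airway markers of 7.02. The medians of the other strains were 4.62, 3.25 and 3.82. On this array the squamous keratin Krt4 reached 10.75, the fast muscle troponin Tnnc2 9.06 and the club cell protein Scgb1a1 10.64. It was the 1 Swiss-derived array with a mean level of another organ's markers more than 2 log2 above the median, which 7 of the 23 other arrays also had. Single airway transcripts were also raised in NON/ShiLtJ and BUB/BnJ. Scgb1a1 read 7.41 and 7.84 there and Bpifa1 8.61 and 8.21, against other strains' medians of 4.51 and 4.40. Sftpc stayed near the floor, at 3.14 and 3.17. Both arrays were kept where arrays with markers of another organ were left out. NON/ShiLtJ was the highest of the 28 for erythroid markers, and SWR/J for MHC class II genes, as described below for each strain. Sample titles are numbers from 40 to 456. SWR/J and FVB/NJ lay in the lower range of titles with 12 of the others, and BUB/BnJ, NOD/ShiLtJ and NON/ShiLtJ in the upper range with 11. Gapdh 3′ minus 5′, a measure of RNA quality from control probe sets, was -0.41 to -0.19 in the Swiss-derived strains and -0.47 to -0.17 in the others.

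Few heart transcripts separated the 5 strains from the rest: 4 of 7513 genes were called (0.0532%), 1 higher and 3 lower. Yae1d1, Pfdn6 and Etfbkmt were lower in the Swiss-derived strains, and Ptgfr was higher. Pfdn6 and Etfbkmt rest on 1 probe set each. Whether the probe sets match the sequences of all strains equally well was not tested, here or in the comparisons below. The unadjusted p was under 0.05 for 438 genes (5.83%), against 375.65 that a uniform p would give. No gene had all 5 Swiss-derived values beyond all 23 others (0 of 7513, 0.00%). The plot of the 4 genes by strain shows that each of them had at least 1 strain out of place.

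**Figure D1:**
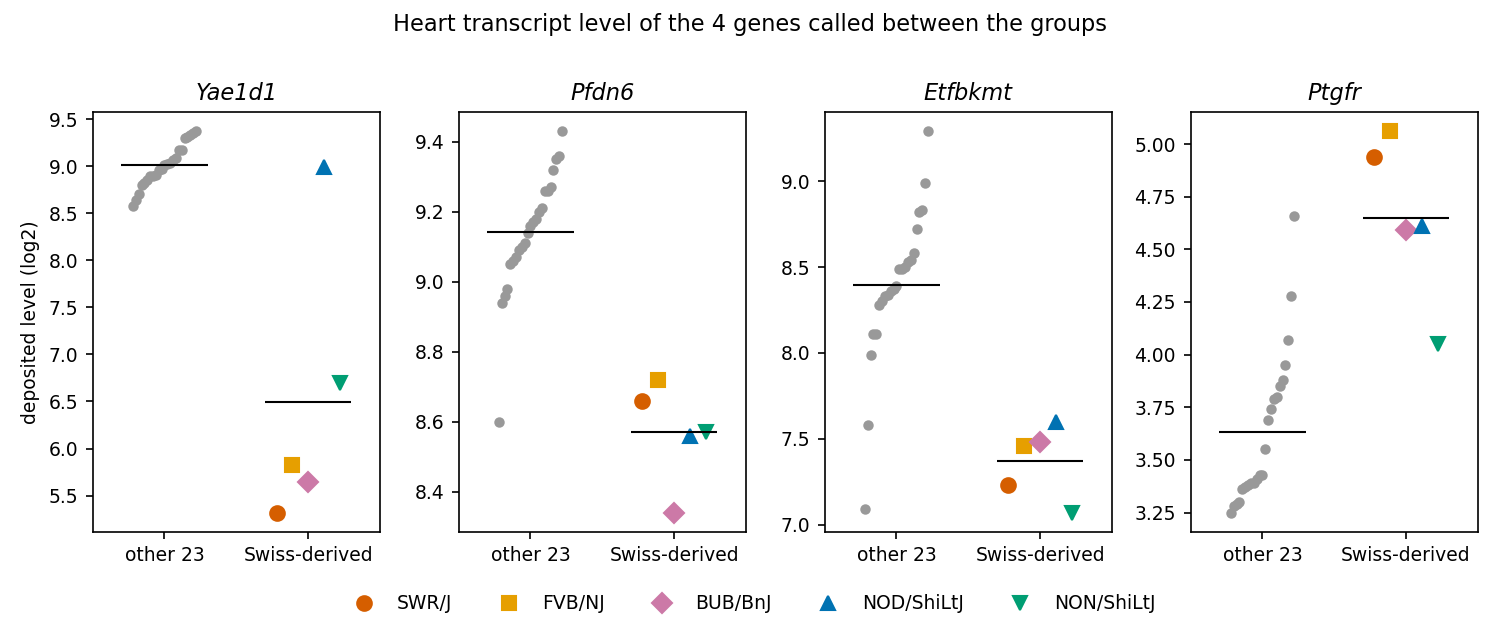
Deposited log2 level of Yae1d1, Pfdn6, Etfbkmt and Ptgfr on each array. Grey points are the other 23 classical strains, coloured symbols the 5 Swiss-derived strains, and horizontal lines the group means; each panel has its own axis. NOD/ShiLtJ at 8.99 lies among the other strains for Yae1d1, and the grey points that reach the Swiss-derived values number 1 for Pfdn6, 2 for Etfbkmt and 3 for Ptgfr.

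Yae1d1 encodes the mouse form of a yeast adaptor that helps to place an iron-sulfur cluster on the ribosome recycling factor ABCE1. Its level was 5.32 in SWR/J, 5.83 in FVB/NJ, 5.64 in BUB/BnJ, 6.70 in NON/ShiLtJ and 8.99 in NOD/ShiLtJ. The other strains ran from 8.58 (LP/J) over a median of 9.01 to 9.37 (C57L/J). So 4 of the 5 strains lay below all 23 others by at least 1.88, and NOD/ShiLtJ lay in the middle of them. The mean was 2.51 lower in the Swiss-derived strains (difference -2.51, SE 0.29, 5.71-fold, adjusted p = 1.05e-05). On a second probe set the same 4 strains, at 4.82, 5.34, 4.81 and 5.56, lay below the other strains' 6.32 to 8.22, and NOD/ShiLtJ was at 8.07. A dim further probe set differed by -0.27. Leaving out NOD/ShiLtJ, which lay at the level of the others, gave a difference of -3.14. Within the lower range of titles, which of the 5 strains holds only SWR/J and FVB/NJ, it was -3.34 (adjusted p = 4.30e-08). Both values follow from the levels above and are no further check. In the upper range, which holds NOD/ShiLtJ, it was -2.0 with an adjusted p of 0.226.

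Pfdn6 encodes a subunit of prefoldin, the chaperone that hands newly made actin and tubulin chains to the cytosolic chaperonin. Its gene lies in the H2 region, near genes of antigen presentation. The 5 values were 8.66 in SWR/J, 8.72 in FVB/NJ, 8.34 in BUB/BnJ, 8.56 in NOD/ShiLtJ and 8.57 in NON/ShiLtJ. The other strains had a lowest value of 8.60, a median of 9.16 and a highest value of 9.43. SM/J, at 8.60, was the only other strain inside the Swiss-derived range, and the next was at 8.94. Pfdn6 was 1.49-fold lower (-0.57, SE 0.09, adjusted p = 0.00108). It was the most even of the 4 differences: -0.57 in SWR, FVB and BUB and -0.57 in NOD and NON. With arrays carrying markers of another organ left out it was -0.59 at an adjusted p of 0.0679, and with families of related strains averaged -0.54 at 0.0929. Within the lower range of titles it was -0.46 (adjusted p = 0.769) and within the upper range -0.65 (adjusted p = 0.00772).

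Its neighbours in the gene order of the GRCm38.p6 table were not called. Tapbp, which encodes the tapasin that loads peptides on MHC class I molecules, lies 2 tested genes away and differed by -0.30 (SE 0.11, adjusted p = 0.696). Its values were 8.47 in SWR/J, 7.70 in FVB/NJ, 7.50 in BUB/BnJ, 7.33 in NOD/ShiLtJ and 7.61 in NON/ShiLtJ, against 7.72 to 8.37 in the others. Thus 4 strains lay below all 23 others for Tapbp and SWR/J lay above them all.

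Etfbkmt encodes the methyltransferase that modifies lysines of the electron transfer flavoprotein, which feeds electrons from fatty acid oxidation into the respiratory chain. The 5 strains lay close together, at 7.23 in SWR/J, 7.46 in FVB/NJ, 7.48 in BUB/BnJ, 7.60 in NOD/ShiLtJ and 7.07 in NON/ShiLtJ. The others ran from 7.09 (CE/J) and 7.58 to 9.29 (DBA/2J), with a median of 8.39. CE/J and the strain at 7.58 lay inside the Swiss-derived range, and the remaining 21 did not. The transcript was 2.03-fold lower (-1.02, SE 0.20, adjusted p = 0.0317). The call was lost without SWR/J (0.129), FVB/NJ (0.103), NON/ShiLtJ (0.103) or BUB/BnJ (0.106). It was also lost with families of related strains averaged (0.194) and without the filter on dim genes (0.0506). Within the lower range of titles the adjusted p was 0.555 and within the upper range 0.553. The difference stayed between -0.95 and -1.10 in every alternative run. The next tested gene, Resf1, differed by -1.0 (SE 0.35, adjusted p = 0.613).

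Ptgfr, the receptor for prostaglandin F, was the 1 gene called higher. Its level was 4.94 in SWR/J, 5.06 in FVB/NJ, 4.59 in BUB/BnJ, 4.61 in NOD/ShiLtJ and 4.05 in NON/ShiLtJ. The others ran from 3.25 over a median of 3.43 to 4.66 (MA/MyJ). SWR/J and FVB/NJ lay above all others, and NON/ShiLtJ was passed by 3 of them. Ptgfr was 2.03-fold higher (1.02, SE 0.17, adjusted p = 0.00598). The median of the other strains was near the floor, below the filter level of 3.59, and the stricter filter on dim genes left Ptgfr out. Its second probe set gave 5.31, 4.57, 4.16, 3.86 and 3.75 against a median of 3.63, so the NOD and NON values lay nearer to the rest there. A dim further probe set differed by 0.19. With probe sets averaged the difference was 0.61 (adjusted p = 0.0569), and with families of related strains averaged it was 1.06 (adjusted p = 0.0929). Without SWR/J the adjusted p was 0.0577, without FVB/NJ 0.103, and without arrays carrying markers of another organ 0.259. Within the lower range of titles the difference was 1.35 (adjusted p = 0.0663) and within the upper 0.80 (0.553).

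Of the gene lists examined, 32 had at least 4 tested members, and 0 of them held a called member in this comparison. Their median differences ran from -0.103 (B cell markers) to 0.351 (skeletal muscle markers), against 0.006 over all 7513 genes. The contractile and energy genes of the heart lay close to the background: 15 of 24 sarcomere genes had a difference above 0 (median 0.035), and 42 of 66 oxidative phosphorylation genes (median 0.009). Over all 7513 genes, 3930 were above 0. Fatty acid oxidation leaned the other way, with 7 of 31 genes above 0 and a median of -0.058. Its members above the other strains' median numbered 4 in SWR/J, 6 in BUB/BnJ, 11 in NON/ShiLtJ, 15 in NOD/ShiLtJ and 19 in FVB/NJ. Its member of largest difference was Hadh, the short-chain hydroxyacyl-CoA dehydrogenase of beta-oxidation. Hadh was 11.80 in SWR/J, 12.08 in FVB/NJ, 11.72 in BUB/BnJ, 11.98 in NOD/ShiLtJ and 11.84 in NON/ShiLtJ, against a range of 11.91 to 12.90 and a median of 12.63. SWR/J, BUB/BnJ and NON/ShiLtJ lay below all others and NOD/ShiLtJ and FVB/NJ near the bottom of their range, but the difference of -0.59 (SE 0.16) did not pass (adjusted p = 0.353). Its second probe set differed by -0.89.

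Hc, Nnt, Tlr4 and H2-Ea, which have well-known strain variants, were examined whatever their result, and 0 of these 4 were called. Hc, the complement component that several laboratory strains lack, differed by -0.15 (SE 0.31, adjusted p = 0.993), at levels of 3.11 to 3.41 that are near the floor of the array. Nnt, the mitochondrial transhydrogenase that is truncated in C57BL/6J, differed by 0.10 (SE 0.11, adjusted p = 0.961). All 5 strains, at 11.18 to 11.51, lay above the C57BL/6J value of 10.73, the lowest of the 28. DBA/2J was close to that value, at 10.79. Tlr4, the endotoxin receptor that is mutant in C3H/HeJ, differed by 0.10 (SE 0.18, adjusted p = 0.987) and its second probe set by -0.11. H2-Ea differed by -0.34 (SE 0.23, adjusted p = 0.917).

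The H2-E molecule pairs an alpha chain from H2-Ea with a beta chain from H2-Eb1, and the alpha chain is not made in several haplotypes, q and g7 among them. A second probe set of H2-Ea read 5.27 in SWR/J, 3.50 in FVB/NJ, 3.63 in BUB/BnJ, 3.10 in NOD/ShiLtJ and 6.51 in NON/ShiLtJ, with a range of 3.13 to 9.35 in the others. FVB/NJ, BUB/BnJ and NOD/ShiLtJ were thus near the floor, while NON/ShiLtJ and SWR/J, the latter of haplotype q, were not. H2-Eb1 read 4.54 in SWR/J, 4.21 in FVB/NJ and 4.03 in BUB/BnJ, against 5.86 in NOD/ShiLtJ and 5.47 in NON/ShiLtJ. The other strains ran from 4.41 (AKR/J) over 6.29 to 8.83 (I/LnJ). The strains of haplotype q were at the bottom of the panel, but the difference was not called, either for those 3 against the others (-2.04, SE 0.54, adjusted p = 0.211) or for all 5 (-1.48, SE 0.45, adjusted p = 0.519).

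SWR, FVB and BUB were then set against the other 23, and 7 of 7513 genes were called (0.0932%), 2 higher (0.0266%) and 5 lower (0.0666%). Yae1d1, Acad9, Fgf1, Arl2 and Pfdn6 were lower, and Pla2g7 and Ptgfr were higher. Yae1d1, Pfdn6 and Ptgfr were the 3 genes also called for all 5 strains. The unadjusted p was under 0.05 for 543 genes (7.23%). These comparisons and those of NOD and NON share the 23 other strains.

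**Figure D2:**
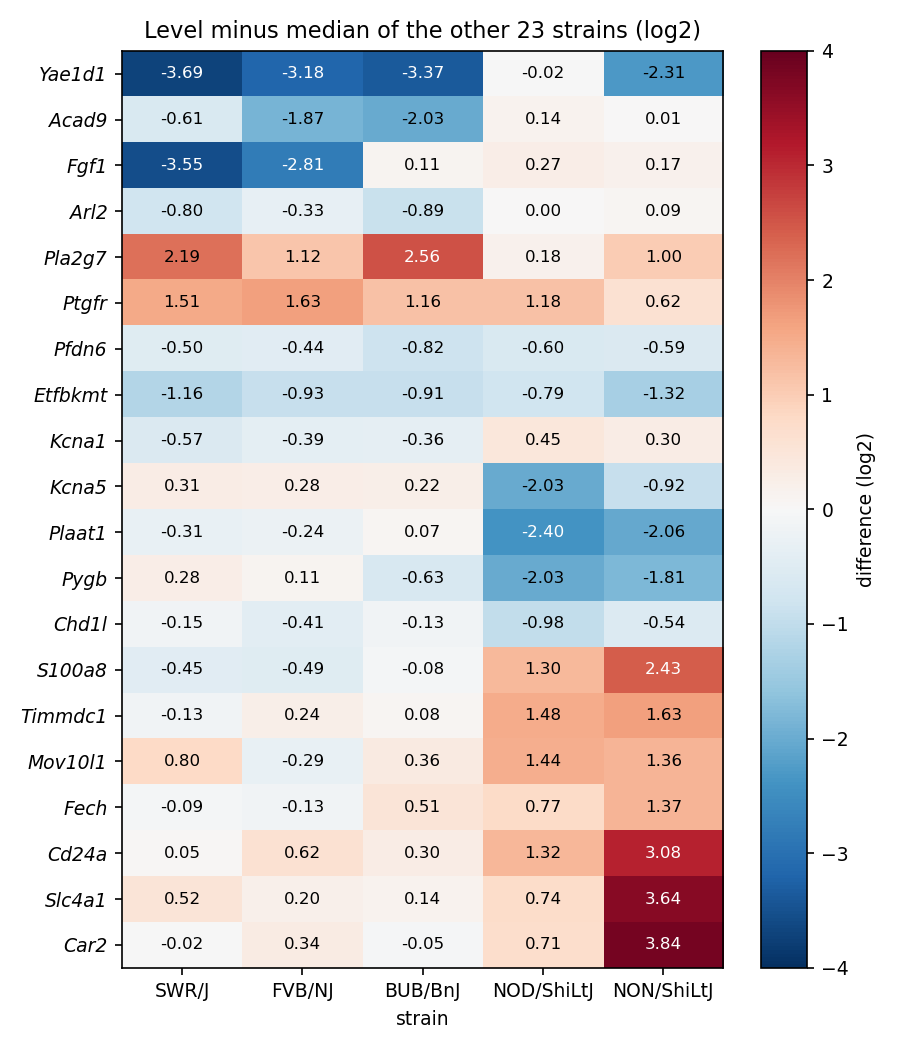
Difference in log2 level between each Swiss-derived strain (columns) and the median of the other 23 strains, for the 20 genes (rows) called in at least 1 of the 4 comparisons. Red is higher and blue lower. Etfbkmt and Pfdn6 are blue in all 5 columns, while Fgf1 is blue in SWR/J and FVB/NJ alone and Car2 is deep red in NON/ShiLtJ alone.

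Yae1d1 was 10.70-fold lower in SWR, FVB and BUB (-3.41, SE 0.23, adjusted p = 6.58e-11), which is the comparison in which its 3 values, 5.32, 5.83 and 5.64, lay farthest from the rest.

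Acad9 encodes a mitochondrial flavoprotein of the acyl-CoA dehydrogenase family that is needed to assemble respiratory complex I. It read 5.54 in FVB/NJ and 5.38 in BUB/BnJ, below the other strains' 6.69 to 7.82, while SWR/J at 6.80 lay inside their range. NOD/ShiLtJ (7.55) and NON/ShiLtJ (7.42) were near the median of 7.41. The fitted difference for the 3 strains was -1.49 (SE 0.21, adjusted p = 2.53e-04). A second, dimmer probe set differed by -0.09, and with both averaged the difference was -0.79 (adjusted p = 0.0536).

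Fgf1, the acidic fibroblast growth factor, was low in just 2 of the 3 strains. It read 4.38 in SWR/J and 5.12 in FVB/NJ, but 8.04 in BUB/BnJ, 8.20 in NOD/ShiLtJ and 8.10 in NON/ShiLtJ, with 7.52 to 8.29 in the others. SWR/J and FVB/NJ lay at least 2.39 below all 23. The second probe set showed the same, with 3.59 and 4.43 against 7.94, 7.84 and 7.75 in NOD, NON and BUB. The difference fitted to all 3 strains was -2.09 (SE 0.34, adjusted p = 0.00264), and it was lost without SWR/J (0.237) or FVB/NJ (0.0642).

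Pla2g7 encodes the secreted hydrolase that inactivates platelet-activating factor and rides on plasma lipoproteins. It was 7.06 in SWR/J, 5.99 in FVB/NJ and 7.43 in BUB/BnJ, all above the other strains' highest value of 5.95, while NOD/ShiLtJ (5.05) and NON/ShiLtJ (5.87) were inside their range. The difference was 1.94 (SE 0.34, 3.85-fold, adjusted p = 0.00427). Arl2, a small GTPase that works with tubulin-folding cofactors, was 6.07 in SWR/J, 6.54 in FVB/NJ and 5.98 in BUB/BnJ, against 6.61 to 7.15 in the others. All 3 strains lay below the 23 others, FVB/NJ only just, and the difference was -0.64 (SE 0.11, adjusted p = 0.00396). Arl2 and Pla2g7 were lost without SWR/J (0.167 for both) and without BUB/BnJ (0.0977 and 0.107). Ptgfr was 1.23 higher (SE 0.21, adjusted p = 0.00396) and Pfdn6 0.57 lower (-0.57, SE 0.11, adjusted p = 0.0158) in the same fit. Both were lost without SWR/J (0.157 for both), Ptgfr also without FVB/NJ (0.0636) and Pfdn6 also without BUB/BnJ (0.236).

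NOD and NON against the same 23 strains gave 11 called genes (0.146%), 7 higher and 4 lower, and 0 of them were called for all 5 strains. S100a8, Slc4a1, Car2, Cd24a, Fech, Timmdc1 and Mov10l1 were higher, and Kcna5, Pygb, Plaat1 and Chd1l were lower. The unadjusted p was under 0.05 for 337 genes (4.49%). With NOD/ShiLtJ left out NON/ShiLtJ stands alone, is assumed to vary like the other groups, and gave 15 called genes, 5 of them shared; NOD/ShiLtJ alone gave 4, 1 of them shared.

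Kcna5, Pygb, Plaat1 and Chd1l were low in both strains. Kcna5 encodes a voltage-gated potassium channel that helps to repolarise the cardiomyocyte. It read 5.27 in NOD/ShiLtJ and 6.38 in NON/ShiLtJ, both below the other strains' 6.49 to 7.69, against 7.61, 7.58 and 7.52 in SWR/J, FVB/NJ and BUB/BnJ. The difference was -1.38 (SE 0.23, 2.60-fold, adjusted p = 0.00498), and for NON/ShiLtJ alone the adjusted p was 0.529. Pygb, the brain isoform of glycogen phosphorylase, read 8.93 in NOD/ShiLtJ and 9.15 in NON/ShiLtJ, against 9.40 to 11.46 in the others with a median of 10.96. Its difference was -1.78 (SE 0.33, adjusted p = 0.0184). Plaat1, a phospholipid acyltransferase, read 3.42 in NOD/ShiLtJ and 3.76 in NON/ShiLtJ, near the floor. The others had a median of 5.82, with PL/J at 3.54 as the 1 similarly low strain, and the difference was -2.20 (SE 0.42, adjusted p = 0.0184). Chd1l, a chromatin remodeller recruited to DNA breaks, was 0.77 lower (-0.77, SE 0.16, adjusted p = 0.0275), at 5.92 and 6.36 against 6.53 to 7.36. It was lost without NOD/ShiLtJ (0.757) or NON/ShiLtJ (0.0747).

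Timmdc1, another assembly factor of complex I, read 5.80 in NOD/ShiLtJ and 5.95 in NON/ShiLtJ, just above the other strains' highest value of 5.79 and well above their median of 4.32. The difference was 1.48 (SE 0.30, adjusted p = 0.0263). Mov10l1, an RNA helicase best known from the germ line, read 9.83 and 9.75, above the highest other value of 9.23 (1.34, SE 0.27, adjusted p = 0.0255). Pygb, Plaat1, Timmdc1 and Mov10l1 lost their call when either strain was left out, with adjusted p-values of 0.24 to 0.74, and over all alternatives run their differences were -1.89 to -1.63, -2.37 to -1.95, 1.41 to 1.56 and 1.23 to 1.38.

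The other called genes were led by NON/ShiLtJ. Slc4a1, the anion exchanger of the red cell membrane, read 7.39 in NON/ShiLtJ and 4.49 in NOD/ShiLtJ, with 3.54 to 5.11 in the 23 others. A second Slc4a1 probe set, near the floor, read 3.45 and 3.43, with 3.05 to 3.51 in the others. Car2, the cytosolic carbonic anhydrase of red cells, read 8.87 and 5.74, with 4.32 to 6.52 in the others. Cd24a, a surface glycoprotein of blood cell precursors, read 6.91 and 5.15, with 3.22 to 5.34. Fech, the ferrochelatase that puts iron into haem, read 10.45 and 9.85, with 8.79 to 9.72, but its 4 probe sets disagreed, at differences of 1.00, 0.16, 1.11 and -0.32. In the fit for both strains the differences were 2.07, 2.27, 2.08 and 1.00, with adjusted p-values of 0.0124, 0.0219, 0.0422 and 0.0263. Without NON/ShiLtJ they were 0.62, 0.70, 1.20 and 0.70, and each adjusted p was 1. With the title range as a block, which cut the 11 calls to 6, Cd24a (0.0745) and Fech (0.0587) were lost, as were Timmdc1 and Mov10l1 (0.0745 for both) and Chd1l (0.0771). Cd24a fell short of the threshold in 8 of 13 alternatives. NOD/ShiLtJ lay inside the range of the others for the first 3 and above it for Fech.

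All 4 erythroid markers on the array, Hba-a1, Alas2, Slc4a1 and Epb42, were highest of the 28 strains in NON/ShiLtJ, although Epb42 was near the floor at 3.53. Their mean level was 8.73 there and 7.65 in NOD/ShiLtJ, against 6.55 to 8.02 in the others. Alas2, which starts haem synthesis in red cell precursors, read 10.49 in NON/ShiLtJ and 9.67 in NOD/ShiLtJ, around a median of 8.26. Of the 23 iron and haem genes on the array, 8 were highest in NON/ShiLtJ, against 3.82% of all 11725 genes, and 17 lay above the other strains' median there. Their 21 tested members had a median difference of 0.187 in NOD and NON, with 2 called, against 0.006 over all genes. The part of red cell RNA in the called differences was not tested.

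S100a8 encodes a calcium-binding protein that is abundant in neutrophils and works as a pair with S100a9. It read 5.26 in NOD/ShiLtJ and 6.39 in NON/ShiLtJ, above the other strains' highest value of 4.52, and 3.51, 3.47 and 3.88 in SWR/J, FVB/NJ and BUB/BnJ. The difference was 1.83 (SE 0.22, 3.56-fold, adjusted p = 4.28e-05), and for NOD/ShiLtJ alone 1.27 at an adjusted p of 0.0747. S100a9 followed the same order, with 5.80 and 6.92 against a median of 3.83, but 129X1/SvJ reached 7.88. The granule markers Mpo and Elane were near the floor in all 5 strains, at 2.93 to 3.36.

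The difference between the subgroups was tested directly, and 5 of 7513 genes were called (0.0666%), 1 higher and 4 lower in SWR, FVB and BUB than in NOD and NON. The unadjusted p was under 0.05 for 513 genes (6.83%). S100a8 (-2.21, SE 0.28, adjusted p = 7.61e-05), Yae1d1 (-2.25, SE 0.35, adjusted p = 0.00164), Kcna1 (-0.82, SE 0.15, adjusted p = 0.00906) and Acad9 (-1.58, SE 0.31, adjusted p = 0.0267) were lower. Kcna5 was higher (1.74, SE 0.28, adjusted p = 0.00239). The Yae1d1 difference came with NOD/ShiLtJ at 8.99 and NON/ShiLtJ at 6.70, so it was -1.10 (adjusted p = 0.052) when arrays with markers of another organ, NOD/ShiLtJ among them, were left out. Gapdh 3′ minus 5′ set SWR/J and FVB/NJ (-0.19 and -0.22) apart from NOD/ShiLtJ, NON/ShiLtJ and BUB/BnJ (-0.41, -0.38 and -0.39), so it split the first subgroup. With it as a covariate 3 of the 5 genes were called, and the adjusted p was 0.0537 for both Kcna1 and Acad9. With the title range as a block Acad9 was -1.54 (adjusted p = 0.0894). S100a8 kept its call in every alternative that tested it, but the stricter filter on dim genes left it out. Leaving out a single strain lost Yae1d1 (0.112) and Kcna5 (0.2) without NOD/ShiLtJ, Kcna1 without SWR/J (0.0934), NOD/ShiLtJ (0.15) or NON/ShiLtJ (0.0631), and Acad9 without any strain but SWR/J (0.167 to 0.228).

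Kcna1 and Kcna5 encode subunits of the same family of potassium channels and are next to each other in the order of tested genes. They were the 2 of the 20 genes called in any comparison with another called gene within 3 tested genes. Kcna1 read 3.49, 3.67 and 3.70 in SWR/J, FVB/NJ and BUB/BnJ and 4.51 and 4.36 in NOD/ShiLtJ and NON/ShiLtJ. The other 23 strains, at 3.75 to 4.27, lay wholly between the subgroups. The neighbours moved in opposite directions: Kcna5 was low and Kcna1 high in NOD and NON. Kcna1 levels are near the floor, where a log2 difference understates the change. Without arrays carrying markers of another organ, the differences were -0.75 (adjusted p = 0.252) for Kcna1 and 1.19 (0.104) for Kcna5.

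How many strains moved together was counted over the 7513 genes. A gene counted where every strain of a set lay beyond all strains outside it, the remaining Swiss-derived strains included. SWR/J and FVB/NJ did so for 94 of the 7513 genes, 44 above and 50 below, and the other 9 pairs for 17 to 51. SWR/J, FVB/NJ and BUB/BnJ did so for 13 genes and the other 9 sets of 3 for 0 to 7. These counts are a description without a test, and sets that share a strain share its genes. SWR/J and FVB/NJ were also the pair in the lower range of titles, with Gapdh 3′ minus 5′ of -0.19 and -0.22 against -0.41 to -0.38 in the remaining 3. Their actin 3′ minus 5′ was 2.17 and 2.38 against at most 1.88. The part of these measures in the count was not tested. Fgf1 led the SWR/J and FVB/NJ pair. Casq1, the calcium store protein of fast skeletal muscle fibres, was high in the same pair, at 7.58 and 7.45 against a highest other value of 6.89. The NOD/ShiLtJ and BUB/BnJ pair was led by Cyp2b10 and the FVB/NJ and NOD/ShiLtJ pair by Psmc3ip.

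**Figure D3:**
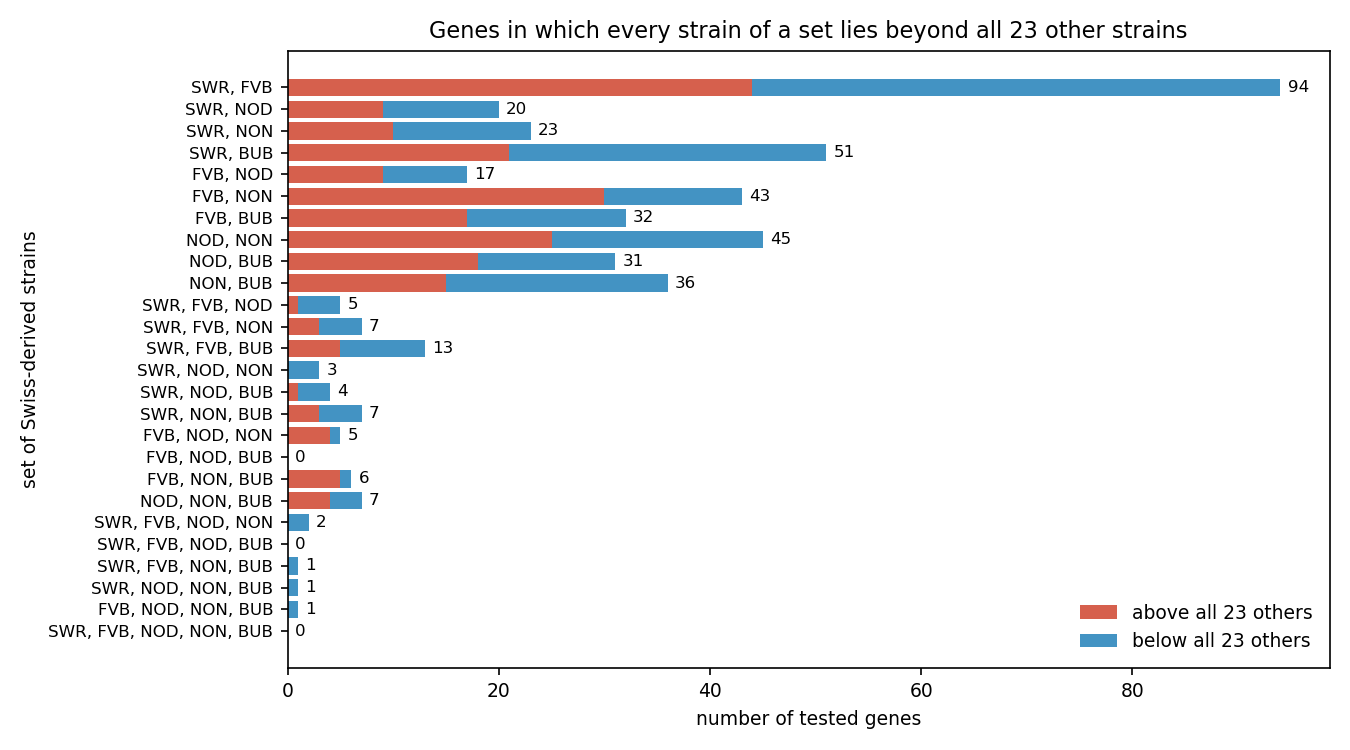
Number of tested genes (of 7513) in which every strain of a set of Swiss-derived strains lies above (red) or below (blue) all strains outside the set. The remaining Swiss-derived strains are among those, although the labels in the picture name only the 23 others. The pair of SWR and FVB has 94 such genes, the set of SWR, FVB and BUB 13, and all 5 strains together 0.

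Psmc3ip, a partner of the meiotic recombinases, read 6.65 in FVB/NJ and 7.17 in NOD/ShiLtJ. The remaining Swiss-derived strains read 3.88 to 4.35 and the 23 others 3.67 to 4.59, so the pair stood at least 2.06 above every other strain. Cyp2b10, a cytochrome P450 induced by xenobiotics, read 7.96 in BUB/BnJ and 8.47 in NOD/ShiLtJ. It was 5.19 in SWR/J, 6.22 in FVB/NJ and 5.11 in NON/ShiLtJ, against a median of 3.64 and a highest value of 6.99 in the others. Cyp2b10 was 2.38 higher over the 5 strains (SE 0.56), which did not pass (adjusted p = 0.221). Its second probe set differed by 2.28. Airway markers moved with it in part: their mean was 7.02 in NOD/ShiLtJ, 4.72 in BUB/BnJ, 4.93 in NON/ShiLtJ, 3.43 in SWR/J and 3.26 in FVB/NJ, against a median of 3.82. Their part in the Cyp2b10 levels was not tested.

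Correlations of the arrays over the 7513 genes, each gene centred on its mean of the 28 strains, were examined as a description. SWR/J and FVB/NJ were each other's closest array, at r = 0.22. Next came C3H/HeJ (0.16) and LP/J (0.14) for SWR/J, and SM/J (0.17) and RIIIS/J (0.16) for FVB/NJ. Of these, C3H/HeJ, LP/J and SM/J also lay in the lower range of titles, with Gapdh 3′ minus 5′ of -0.18, -0.25 and -0.17, while RIIIS/J lay in the upper with -0.37. NOD/ShiLtJ was closest to CE/J (0.40) and 129X1/SvJ (0.33), which share its squamous and skeletal muscle markers: Krt4 read 11.34 in CE/J and 11.80 in 129X1/SvJ. NOD/ShiLtJ and NON/ShiLtJ had r = 0.06. Over the 10 pairs of Swiss-derived strains the median was 0.036, against -0.055 for the 115 pairs with another strain and -0.034 for the 253 pairs of other strains.

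Each strain was also compared with the other 27 for genes in which it was alone at the extreme by at least 1 log2. The 5 strains had 24 such genes, with 11 in NON/ShiLtJ (0.146%), 9 in SWR/J (0.120%), 3 in NOD/ShiLtJ (0.0399%), 1 in BUB/BnJ (0.0133%) and 0 in FVB/NJ (0.00%). The 23 others had 1 to 15, with a median of 4. With 1 array per strain these values have no replicate check, and the following levels are descriptions.

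SWR/J had high levels of antigen presentation genes and of interferon-induced GTPases. The H2 class II molecules present peptides to helper T cells, class I molecules present them to cytotoxic T cells, and the interferon-induced GTPases attack the vacuoles of intracellular pathogens. On the SWR/J array 8 of 14 class II genes, 5 of 20 class I and processing genes and 6 of 11 of these GTPases were the highest of the 28. H2-Oa and Ciita, among the 8, were near the floor at 3.62 and 3.72 and were not tested. Over all 11725 genes the share highest in SWR/J was 3.73%. The list of other interferon response genes stood out less, with 3 of 26 highest in SWR/J and a mean level of 4.72, below I/LnJ at 5.11. The mean level of class II genes was 5.79, against 4.30 to 4.39 in the remaining Swiss-derived strains and 4.06 to 5.64 in the others. That of the GTPases was 7.27, second to I/LnJ at 7.53, against 4.72 to 5.14 in the remaining Swiss-derived strains.

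**Figure D4:**
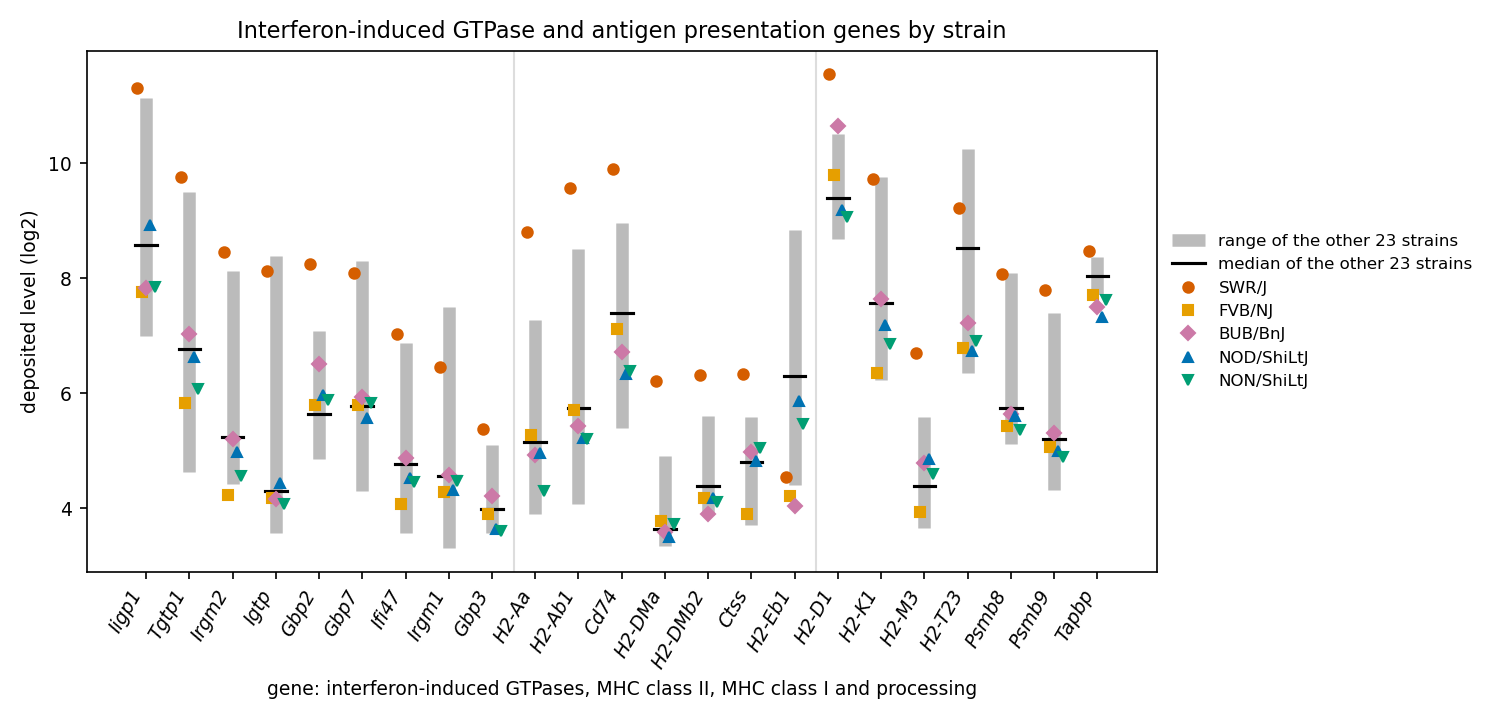
Deposited log2 level (y axis) of 23 genes of 3 groups (x axis) in the 5 Swiss-derived strains (coloured symbols), with the range (grey bar) and median (black line) of the other 23 strains. SWR/J is above the grey bar for H2-Aa at 8.80, H2-Ab1 at 9.56 and Gbp2 at 8.24, and low within it for H2-Eb1 at 4.54.

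Among class II genes, H2-Ab1 read 9.56 in SWR/J and 5.21 to 5.71 in the remaining Swiss-derived strains, with a highest other value of 8.50. H2-Aa read 8.80 against 4.29 to 5.27 and a highest other value of 7.27. Cd74, the invariant chain that guides class II molecules, read 9.89, with 8.95 as the highest other value. The peptide loader H2-DMa read 6.21, with a highest other value of 4.91. These 4 were among the 8 class II genes at their highest in SWR/J, while H2-Eb1 was low there. Of the class I group, H2-K1 read 9.73, H2-M3 6.69 and the immunoproteasome subunit Psmb9 7.79 in SWR/J. The remaining Swiss-derived strains read 6.35 to 7.63, 3.93 to 4.86 and 4.89 to 5.31 for these genes, and I/LnJ 9.75, 5.59 and 7.39. H2-D1 read 11.54 in SWR/J, 9.79 in FVB/NJ and 10.64 in BUB/BnJ and was not called for the 3 strains (1.21, SE 0.26, adjusted p = 0.0533). Its 5 probe sets did not agree: the next 3 by level differed by -1.69, -1.62 and -0.94. Class I genes are near-identical copies whose probe sets can cross-hybridise and match 1 haplotype better than another.

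Among the GTPases, Iigp1 read 11.30 in SWR/J, Tgtp1 9.75, Irgm2 8.45, Gbp2 8.24, Igtp 8.12 and Ifi47 7.03. The remaining Swiss-derived strains read 7.75 to 8.93, 5.82 to 7.03, 4.22 to 5.20, 5.80 to 6.50, 4.08 to 4.44 and 4.08 to 4.88. I/LnJ was the 1 other strain at a similar level for most of them, with 11.13 for Iigp1, 8.13 for Irgm2 and 8.38 for Igtp. These levels moved with other immune lists on the SWR/J array. Its 23 complement genes had a mean level of 5.71, the highest of the 28, and its 13 macrophage markers 6.03, close to the highest (6.06, LG/J), with all 13 above the other strains' median. Their part in the class II and GTPase levels was not tested. No member of the 3 lists was called in any of the 4 comparisons. In SWR, FVB and BUB against the others the median difference was 0.566 for the 10 tested GTPases and 0.357 for the 9 tested class II genes, against 0.004 over all genes.

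The promoters of 3 of these GTPases are shown because their levels were high together on 1 array and their sequences share a stretch. Interferon gamma acts through a STAT dimer that binds the motif called GAS, and other interferon signals through a complex that binds the motif called ISRE. Both strands were searched for TTCNNNGAA (GAS) and for GAAA, any 2 bases and GAAA again (ISRE) in RefSeq promoters of GRCm38.p6, the C57BL/6J reference, from 250 bases before to 50 after the start. Of 32851 such windows, 8.30% held the first, 3.44% the second and 0.454% both. Of the 11 GTPase genes 9 had an entry, in 10 windows, of which 4 held the first, 8 the second and 4 both. Ifi47, also high in SWR/J, held neither. Class II and class I genes with an entry were searched too, and none held both. H2-DMb2, H2-M3 and Psmb8 held the first, and Ctss, H2-T23, Psme1 and Erap1 the second. The remaining ones held neither, among them H2-Aa, H2-DMa, H2-K1, H2-D1 and Psmb9. The stretches below run 5′ to 3′ on the gene's strand, with both motifs in capitals, the first of them starting 45, 75 and 88 bases before the start for Igtp, Irgm2 and Tgtp1.
Igtp, chr11:58199441-58199550, plus strand: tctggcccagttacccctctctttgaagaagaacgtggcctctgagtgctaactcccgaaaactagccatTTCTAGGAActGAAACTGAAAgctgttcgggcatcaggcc
Irgm2, chr11:58214832-58214941, plus strand: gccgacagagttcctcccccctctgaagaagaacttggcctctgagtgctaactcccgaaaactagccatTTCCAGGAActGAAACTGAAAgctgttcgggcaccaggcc
Tgtp1, chr11:48992295-48992404, minus strand: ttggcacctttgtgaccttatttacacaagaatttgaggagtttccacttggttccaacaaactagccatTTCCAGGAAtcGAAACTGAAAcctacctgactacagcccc
In each of the 3 the second motif follows the first closely, without overlap. A match is a description of the reference letters and not evidence of binding, and the SWR/J sequence was not analysed here.

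SWR/J was also the lowest of the 28 for some genes. Dmac2l, a mitochondrial factor linked to ATP synthase, read 3.56 against 6.66 or more in every other strain, a gap of 3.09. Fbp2, the muscle fructose bisphosphatase, read 4.54 against 6.01 in BUB/BnJ and 6.42 or more in the 23 others. Fatty acid oxidation had a mean of 9.87 in SWR/J, level with BALB/cJ at the bottom of the 28. In SWR/J 7 of the 31 genes were at their lowest, against 3.85% of all genes, and 4 lay above the other strains' median.

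NON/ShiLtJ held 9 of its private extremes on the high side. Beside Car2, Slc4a1, Cd24a and S100a8 they were Cenpf (9.50), a kinetochore protein of dividing cells, Bpgm (10.31), the enzyme that makes the red cell's haemoglobin effector, Trim10 (5.41), Cdr2 (6.34) and the macrophage marker Cd68 (7.16). The next strain read 7.81 for Cenpf, 9.25 for Bpgm and 5.98 for Cd68. Its macrophage markers had a mean level of 6.05 and its fibroblast markers 9.36, the highest of the 28 for the latter. Hsd17b12, a reductase of long-chain fatty acid synthesis, read 4.45 in NON/ShiLtJ and 5.94 or more elsewhere. Dnajb6, a chaperone mutated in a limb-girdle muscular dystrophy, read 6.06 and 7.40 or more elsewhere.

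NOD/ShiLtJ held 3 private lows. Tmem14c, which takes part in haem synthesis in mitochondria, read 5.41 against 8.40 or more in every other strain. Rmnd1, needed for mitochondrial translation, read 3.32 against 5.70 or more. Kcna5, described above, was the other. The 7 cardiomyocyte markers had a mean level of 12.00 on this array, within the range of the other strains.

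BUB/BnJ had a single private extreme: Gstt1, a glutathione transferase, read 5.09 against 6.91 or more in every other strain. FVB/NJ had none, but it was the lowest of the 28 for complement genes (5.09) and macrophage markers (5.11), with 6 of 13 of those markers at their lowest there, against 3.96% of all genes. C1qa read 6.44, C1qb 5.66 and C4b 6.18 in FVB/NJ, against 7.71, 7.26 and 8.49 in SWR/J. SWR/J and FVB/NJ were thus at opposite ends of the panel for the mean level of complement genes. FVB/NJ was closely followed by 129X1/SvJ at 5.11. Of the 23 genes, 5 were highest in SWR/J, against 3.73% of all genes, and 3 lowest in FVB/NJ, against 3.96%. C4b in FVB/NJ lay inside the other strains' range of 5.20 to 8.26, and C1qa in SWR/J below the 8.10 of LG/J.

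**Figure D5:**
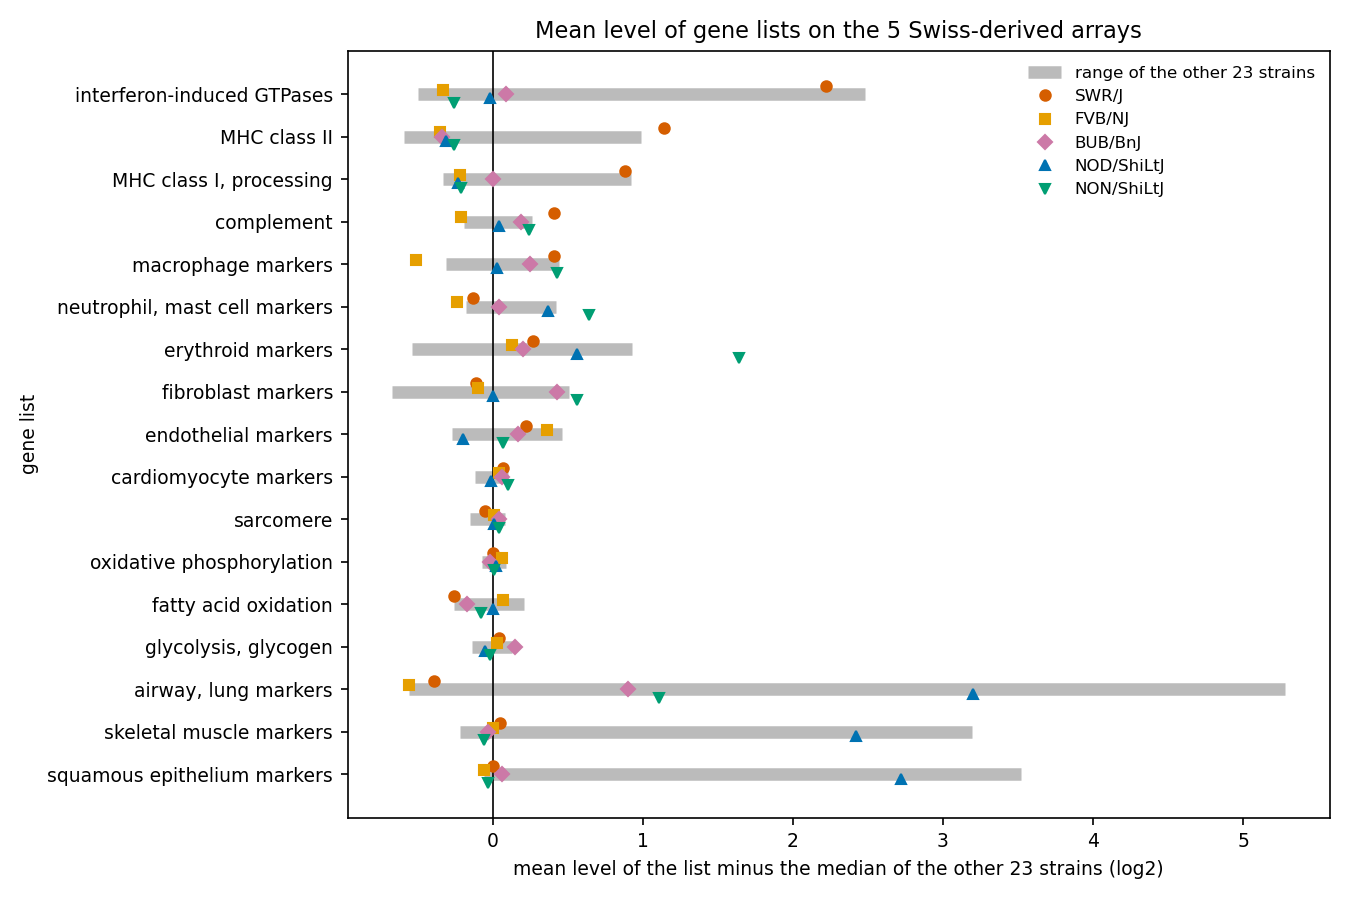
Mean log2 level of 17 gene lists (y axis) on each Swiss-derived array minus the median of the other 23 strains (x axis). Grey bars are the range of the other 23 strains. SWR/J lies far right for interferon-induced GTPases and MHC class II, NON/ShiLtJ for erythroid markers and NOD/ShiLtJ for airway, skeletal muscle and squamous markers, while the heart's own lists lie near 0.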

How the data were processed

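The panel holds 99 Affymetrix HT_MG-430A arrays of heart RNA, each of another strain, and 28 of them were compared. The authors deposited log2 values of 22416 probe sets, 89 of them controls. GCOS and RMA are named in the submitters' processing notes, versions not. RMA normalises by quantiles, so array medians were alike (3.97 to 4.06); no scanner files were used, and the number of arrays limits the precision. Probe sets with 1 gene symbol (17783) were named from the platform annotation; 284 had several and 4349 none. Groups came from strain labels; the age label rises with sample order and was not used. The 4 comparisons used limma 3.58.1 in R 4.3.3 (lmFit, eBayes, no covariates); the 3 subgroup comparisons shared 1 fit. The limma script was tested on simulated data. Python 3.11.15 with numpy 2.4.6, pandas 2.3.3 and matplotlib 3.10.9 was also used. Named genes were the largest called differences per comparison, called list members, called neighbours, and Hc, H2-Ea, Nnt and Tlr4; others were chosen after their values were seen. The strains and the 41 lists (722 of 878 entries on the array) were chosen with earlier results of these data known.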

Additional observations from a re-analysis of the deposited data

Results flagged for a closer look

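Over 24 genes and 41 lists, the 5 Swiss-derived values were searched for 1 strain far from the other 4. Such a strain was found for 2 genes and 7 lists. The cut-off gives about 1 in 20 for independent items chosen without sight of the data, and that rate does not apply here. Most of the genes had been called in these data, Car2 and Slc4a1 among them. The lists were chosen with earlier results known, and several moved together. SWR/J stood apart for MHC class II (5.79), MHC class I and processing (7.07), interferon-induced GTPases (7.27) and the list of known strain variants (4.95). NON/ShiLtJ stood apart for Car2 (8.87), Slc4a1 (7.39) and the erythroid markers (8.73). NOD/ShiLtJ stood apart for skeletal muscle (7.04) and squamous epithelium markers (5.97). In the tested difference of SWR, FVB and BUB minus NOD and NON, the subgroups differed for S100a8 (-2.21), Yae1d1 (-2.25), Kcna5 (1.74), Acad9 (-1.58) and Kcna1 (-0.82).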

How the results depend on the processing

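Called genes of all 5 strains against the others numbered 4, and 3 or 4 without a filter, with a stricter filter, with probe sets averaged, with arrays centred, with another variance model, with control covariates or with the title range as a block. They numbered 2 without arrays carrying markers of another organ (Yae1d1 and Etfbkmt), 2 in the upper title range (1 of the 4, Pfdn6), and 1 with related strains averaged to 4 and 15 families (Yae1d1). The lower title range gave 4 (1 shared, Yae1d1). Leaving out 1 Swiss-derived strain gave 2 to 6, with 2 without FVB/NJ. For SWR, FVB and BUB (7 called) it gave 2 to 10, with 2 without SWR/J. NOD and NON (11 called) gave 4 to 15 in this way, 7 with the stricter filter, 18 without arrays carrying markers of another organ (4 shared) and 6 with the title block. The difference between the subgroups (5 called) gave 4 to 8 in this way, 3 with the stricter filter, 3 with probe sets averaged, 11 without the marker arrays (1 shared) and 3 with the Gapdh covariate. Over 27 called gene results and 382 settings, 296 kept their call, 86 fell short of the threshold and 0 turned. The uncalled Hc turned to 0.00 in the upper title range. Tlr4 turned to -0.01 with probe sets averaged, -0.02 without SWR/J (-0.02 to 0.18 over the strains left out) and -0.08 in the upper title range. The cause of these changes was not tested. The actin covariate was added after the data were seen. No paired analysis was possible because the labels carry no shared replicate numbers. At levels near 3 log2 the array hardly resolves differences.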
